A study of Mus musculus with 8 samples.

Results

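The enzymes that build and sulfate glycosaminoglycan chains were examined in the adult retina of WT mice and of mice with knocked-out alleles of Bcan, Ncan, Tnc and Tnr, which encode the matrix proteins brevican, neurocan, tenascin-C and tenascin-R. The list names 45 enzyme genes by function, and 44 of them had a row in the deposited table of 18058 genes. The remaining gene, Chst7, was not analysed here. The quadruple KO mice came from the crossing of single KO lines, and WT mice of the background strain 129S2/SvPasCrl were the controls. Each genotype was represented by 4 libraries, named A to D, which the series describes as coming from separate mice. Adult mice of both sexes were used according to the methods, which also state that retinae were pooled before RNA extraction. The age in weeks and the sex behind each library are not given in the sources used here. The KO is constitutive, so every cell type of the retina carried it, and total RNA of the whole retina was sequenced, so fewer cells of a type and less RNA per cell cannot be told apart.

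All values below are normalized counts, meaning estimated read counts per gene that the authors divided by a scaling factor for each library. The normalized total was 36.1 M to 42.2 M per library, and the depth estimated from the smallest steps between low values ran from 23.9 M reads in WT B to 52.4 M in KO C. Of the targeted genes, Ncan stood at 0.0566% of its WT mean in the quadruple KO, Bcan at 5.82%, Tnr at 42.9% and Tnc at 92.9%. The study's supplement places each deletion in a segment of its gene, so RNA of Tnr or Tnc counted outside that segment is no check of the KO. All 11 markers of retinal neurons and Mueller glia had a row, with the lowest mean at 180 normalized counts for Lhx1. The libraries WT B and WT C stood apart from the other 6 libraries. The first principal component held 50.9% of the variance over all genes tested and placed them at 71.9 and 69.3, whereas the others lay between -30.2 and -11.1. The 13 mitochondrially encoded mRNAs made up 0.402% of all normalized counts for WT B and 0.341% for WT C, whereas the others held 1.28% to 1.64%. The comparison with WT A and WT D alone is therefore given beside the main one for each enzyme whose values are listed by library.

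Glycosaminoglycans are long sulfated sugar chains carried by the core proteins of proteoglycans. A short linker of xylose, galactose and glucuronic acid is first built on a serine of the core protein, and the next sugar decides whether the chain grows as chondroitin or as heparan. Epimerases and sulfotransferases then modify the growing chain, and the pattern of sulfate groups governs which growth factors, guidance molecules and matrix proteins it binds. Brevican and neurocan, both deleted here, are chondroitin sulfate proteoglycans of neural tissue, so the comparison addresses whether the RNA of the chain-building enzymes differed in their absence.

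In the WT retina the transcripts of these enzymes covered 2 orders of magnitude. Levels were compared between genes as normalized counts per kb of annotated exon. The median over the 44 genes and all 8 libraries was 146 per kb, against 90.8 per kb over the 17554 tested genes with a known length. B3gat3, which adds the glucuronic acid that completes the linker, had the highest WT level per kb with 698 ± 152 (SD, n = 4). It was followed by Ndst1, a heparan N-deacetylase and N-sulfotransferase, with 602 ± 87.7 per kb. B3gat1, a relative of B3gat3 that makes the HNK-1 carbohydrate, had 547 ± 31.7 per kb, and the chondroitin polymerizing factor Chpf had 540 ± 70.6 per kb. Among these genes each level was within 1 SD of the next, taking the larger SD of the pair. Their ranks were thus not separated beyond the spread between libraries. Extl3, next in the order, had 387 ± 24.2 per kb. The lowest WT levels per kb belonged to the heparan gene Extl1 (7.10 ± 1.94), the chondroitin synthase Chsy3 (7.43 ± 1.86) and the dermatan epimerase Dse (11.8 ± 1.72). Of the chondroitin synthases, Chsy1 with 374 ± 51.2 per kb was thus far more abundant than Chsy3.

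**Figure D1:**
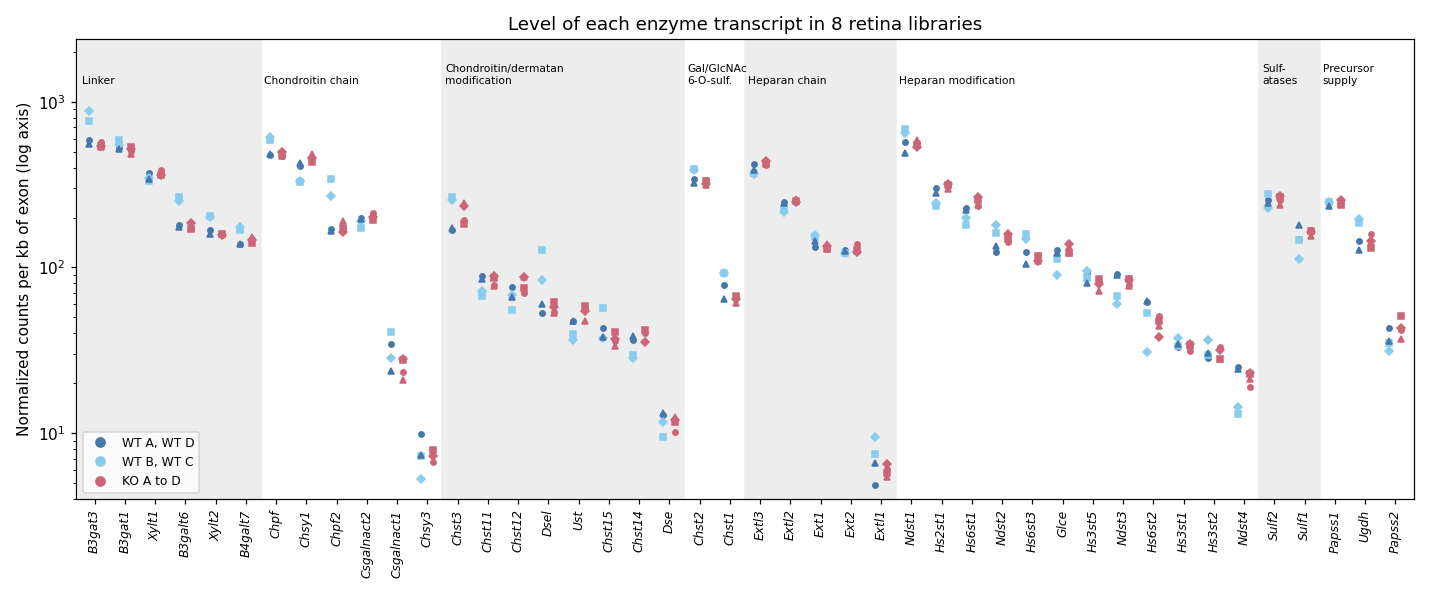
Level of each of the 44 enzyme genes in each library, in normalized counts per kb of exon on a log axis, grouped by role; each point is 1 library. B3gat3 and Ndst1 lie highest, Extl1, Chsy3 and Dse lie lowest, and the light blue points (WT B and WT C) both lie above the dark blue ones for 18 genes and both below for 18.

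No enzyme of the list passed the test between genotypes. With limma on log2(normalized count + 1) and adjustment over all 17636 genes tested, 0 of 44 enzymes had an adjusted p under 0.05, and the lowest adjusted p was 0.301. Of all genes tested, 0.437% were called. At an unadjusted p under 0.05, 6 of 44 enzymes (13.6%) were counted, against 16.6% of all genes tested. Of these, 4 had the higher mean in the quadruple KO (Chsy1, Ust, Hs2st1 and Hs6st1; 9.29% of all genes did so) and 2 had the lower mean (B3gat3 and Chst1; 7.28% of all genes). The values of the genotypes did not overlap for 4 of 44 enzymes (9.09%), against 9.74% of all genes tested. Chsy1, Ust and Hs6st1 were the 3 with each quadruple KO library above each WT library, a pattern shown by 6.16% of all genes. Xylt2 was the 1 enzyme with each quadruple KO library below each WT library, a pattern shown by 3.58%. The shares of the enzymes were thus near or under the background in each of these counts. The count at an unadjusted p under 0.05 came to 14 without WT A, 14 without WT D, 3 without WT B and 3 without KO C. The share of all genes at that p in those fits is not given here, so these counts have no background. A fit with the leading residual component as a covariate called 13 enzymes, with 5857 genes called overall.

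The differences were small in both directions. The log2 fold change, taken as quadruple KO over WT, was above 0 for 22 enzymes and below 0 for 22, with a median of -0.01 over the enzymes and 0.00 over all genes. The median size regardless of sign was 0.16 on the log2 scale for the enzymes and 0.19 for all genes. The values ran from -0.44 for the dermatan epimerase Dsel to 0.35 for the uronyl sulfotransferase Ust. For 28 of 44 enzymes the 95% interval of the log2 fold change lay within 0.5 of 0 on either side, compared with 44.1% of all genes. The enzymes and all genes were not matched by level, and the enzymes had the higher median level (146 against 90.8 per kb). The plot of fold changes with their intervals shows the widest intervals for Dsel, Chpf2 and Ndst4.

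**Figure D2:**
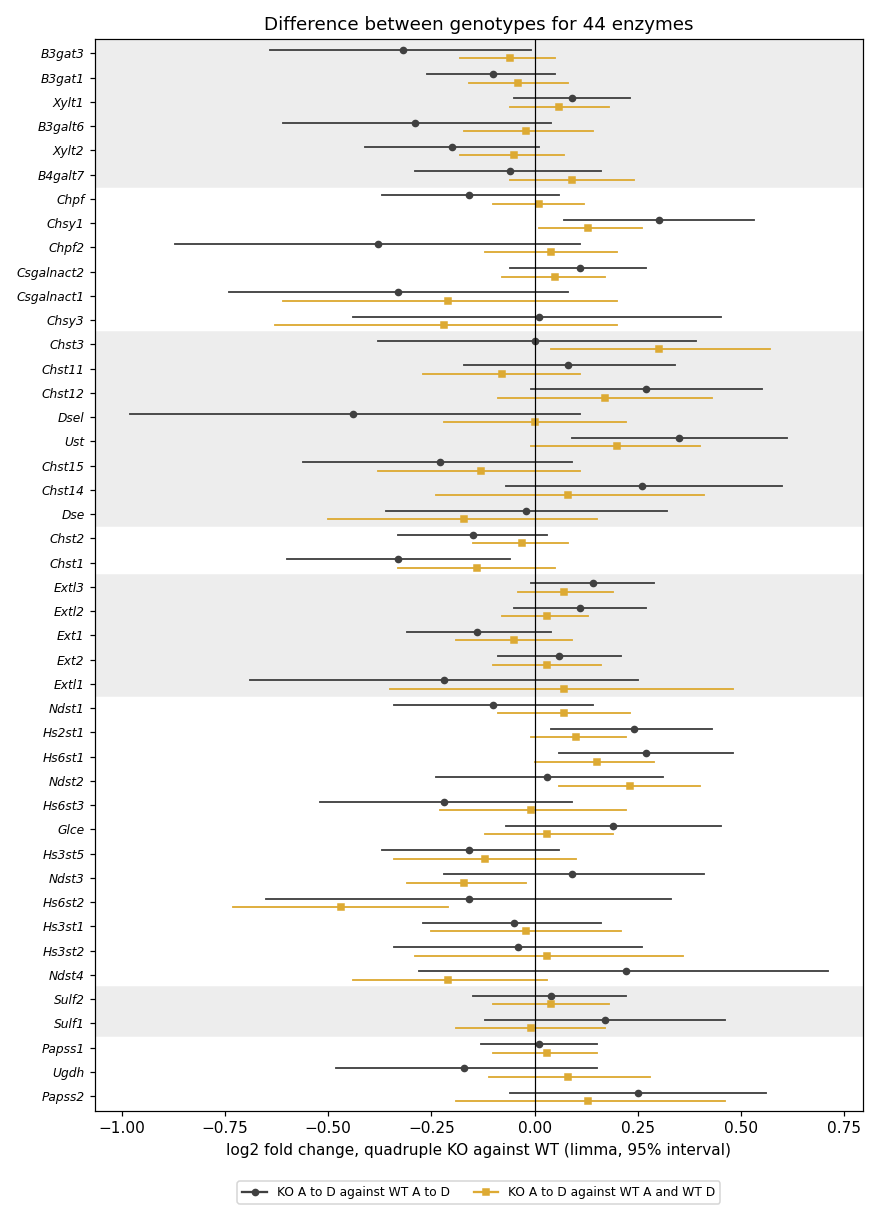
Log2 fold change from WT to quadruple KO (horizontal axis) for 44 enzymes in rows, with 95% intervals from limma; dark circles use all 4 WT libraries and yellow squares use WT A and WT D alone, and shading separates the classes. Most intervals include 0 in both comparisons, and the yellow values are closer to 0 for 35 of 44 enzymes.

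The spread between libraries was on the WT side. The coefficient of variation was larger in WT than in the quadruple KO for 41 of 44 enzymes (93.2%), against 83.8% of all genes tested. Its median over the enzymes was 13.6% in WT and 5.35% in the quadruple KO, and it reached 41.6% for Dsel in WT. WT B and WT C together lay above both WT A and WT D for 18 enzymes and below both for 18, with the remaining 8 mixed. The corresponding shares of all genes were 35.1% and 35.8%. Among the 18 with high values in WT B and WT C were 5 of the 6 genes of the linker class. That class counts B3gat1, which makes the HNK-1 carbohydrate and not the linker. Chpf, Chpf2, Chst3, Dsel, Ndst1, Ndst2 and Ugdh were also among these 18. Among the 18 with low values were Chsy1, Ust, Hs2st1, Hs6st1, Glce, Sulf1 and Ndst4.

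Where WT B and WT C were high, the median log2 fold change was -0.16, and where they were low it was 0.15. The same sets had medians of 0.00 and 0.03 when WT A and WT D were the only controls. Both sets were formed from WT values that also enter the fold change. The opposite signs, and their loss without WT B and WT C, therefore follow largely from the grouping. The first set had a median GC content of 54.4% and the second of 47.1%. Over the 44 enzymes the difference of WT B and WT C from WT A and WT D had a Spearman correlation of 0.39 with GC content, and of 0.41 over 17554 genes, given as a description across genes of the same libraries. The part of base composition, of mitochondrial RNA or of any preparation step in these values was not tested.

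**Figure D3:**
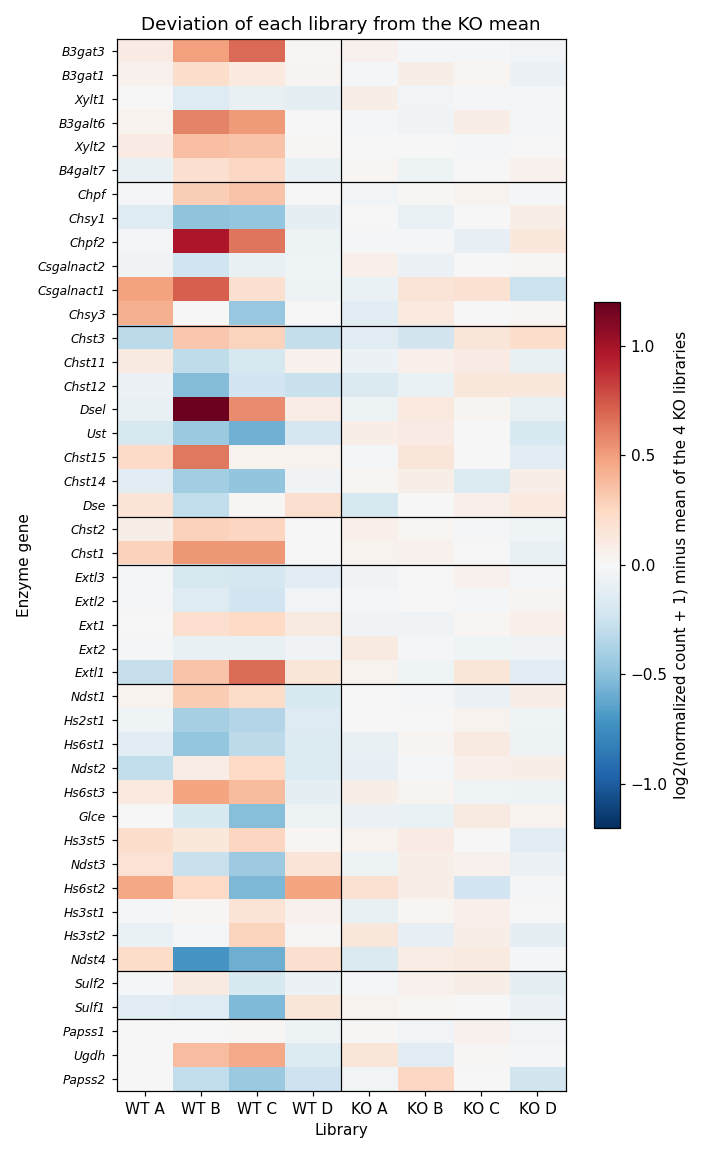
Log2(normalized count + 1) of each enzyme (rows, grouped by class) in each library (columns) minus the mean of the 4 quadruple KO libraries; red is higher and blue is lower, on a scale from -1.2 to 1.2. The columns WT B and WT C hold the strongest colors, with Dsel and Chpf2 reddest in WT B.

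The linker is the step shared by both kinds of chain. Xylt1 and Xylt2 transfer the first xylose, and B4galt7 and B3galt6 add the galactoses. Xylt2 (ENSMUSG00000020868.16, chr11:94553166-94568367 on the minus strand of GRCm39) had 1034, 1247, 1230 and 980 normalized counts in WT A to D, and 968, 972, 962 and 973 in KO A to D. The groups did not overlap, but WT D and KO D were only a few counts apart and the gap came mostly from WT B and WT C. Its mean was 1123 ± 136 for WT and 969 ± 4.94 for the KO libraries (SD, n = 4 each; two-sided exact permutation p = 0.0286, the smallest that 4 against 4 libraries allow). The log2 fold change was -0.20 (standard error 0.09, limma adjusted p = 0.302), and -0.05 against WT A and WT D alone (adjusted p = 0.716). B3gat3 (chr19:8897586-8904605, plus strand, GRCm39) had 1831, 2405, 2738 and 1739 normalized counts in WT and 1776, 1695, 1689 and 1675 in the quadruple KO. WT B and WT C were again the high libraries, and WT D lay within the KO range. Its log2 fold change was -0.32 (standard error 0.14, unadjusted p = 0.0436, limma adjusted p = 0.301), and -0.06 without WT B and WT C. The other genes of the linker class, B3gat1 included, had log2 fold changes between -0.29 (B3galt6) and 0.09 (Xylt1). Against WT A and WT D alone they lay between -0.04 and 0.09. Of the exonic bases of B3galt6, 16.3% are shared with Sdf4 on the opposite strand, and the strand setting of the quantification is not given in the sources used here.

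Chondroitin chains are started by Csgalnact1 and Csgalnact2, which add the first N-acetylgalactosamine, and extended by complexes of chondroitin synthases with polymerizing factors. Chsy1 (ENSMUSG00000032640.11, chr7:65759199-65824975, plus strand, GRCm39) is the chondroitin synthase with the higher level here. Its normalized counts were 2331, 1861, 1883 and 2412 in WT A to D and 2592, 2451, 2611 and 2743 in KO A to D. Every quadruple KO library exceeded every WT library, with WT D and KO B as the nearest pair. The mean was 2122 ± 290 for WT and 2599 ± 119 for the KO libraries (SD, n = 4 each; exact permutation p = 0.0286). The log2 fold change was 0.30 (standard error 0.10, 95% interval 0.07 to 0.53, unadjusted p = 0.0146, limma adjusted p = 0.301). Against WT A and WT D alone it was 0.13 (standard error 0.06, unadjusted p = 0.0421, limma adjusted p = 0.410).

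The polymerizing factors, which work together with the synthases, had lower KO means through 2 WT libraries. Chpf had 1836, 2287, 2358 and 1870 normalized counts in WT and 1817, 1878, 1922 and 1829 in the quadruple KO, a log2 fold change of -0.16 that became 0.01 without WT B and WT C. Chpf2 had 1019, 2036, 1618 and 997 in WT and 1027, 1029, 972 and 1134 in the quadruple KO. WT A and WT D lay within the KO range, whereas WT B was the highest library by a wide margin. Its log2 fold change of -0.38 (95% interval -0.87 to 0.11, limma adjusted p = 0.337) was accordingly 0.04 against WT A and WT D (interval -0.12 to 0.20). The annotation places 41.3% of the exonic bases of Chpf2 over exons of Smarcd3 and 13.2% over exons of Abcf2, both on the opposite strand. The WT mean was 330.7 normalized counts for Smarcd3 and 2773 for Abcf2. The remaining members were Csgalnact1 (-0.33), Csgalnact2 (0.11) and Chsy3 (0.01), whose intervals included 0 in both comparisons.

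Modification of chondroitin and dermatan decides where the sulfate groups sit. Chst3 places sulfate on the 6-O position of N-acetylgalactosamine, Chst11 and Chst12 on the 4-O position, Chst14 on the 4-O position in dermatan, and Chst15 adds a further 6-O sulfate to 4-sulfated units. Chst3, the most abundant of them per kb with 215 ± 51.1 in WT, had 1114, 1745, 1672 and 1141 normalized counts in WT and 1267, 1197, 1543 and 1607 in the quadruple KO. KO C and KO D were higher than KO A and KO B, and WT B and WT C were the highest of all. Against all WT libraries its log2 fold change was 0.00 (95% interval -0.38 to 0.39). Against WT A and WT D alone it was 0.30 (standard error 0.12, interval 0.04 to 0.57, unadjusted p = 0.0297, limma adjusted p = 0.377), with all 4 quadruple KO libraries above both WT libraries.

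Ust (ENSMUSG00000047712.9, chr10:8080518-8394664, minus strand, GRCm39) places sulfate on the 2-O position of the uronic acid in chondroitin and dermatan. It had 524, 439, 403 and 523 normalized counts in WT and 633, 644, 601 and 528 in the quadruple KO. The groups did not overlap, although KO D was only slightly above WT A and WT D. The mean was 472 ± 61.1 for WT and 602 ± 52.5 for the KO libraries (SD, n = 4 each; exact permutation p = 0.0286), and the log2 fold change of 0.35 (standard error 0.11, unadjusted p = 0.0128, limma adjusted p = 0.301) was the highest of the list. It came to 0.20 against WT A and WT D alone (95% interval -0.01 to 0.40, adjusted p = 0.446). Dsel, which with Dse turns glucuronic into iduronic acid, had 307, 742, 485 and 349 normalized counts in WT and 313, 356, 335 and 308 in the quadruple KO. Its lowest log2 fold change of the list, -0.44 (95% interval -0.98 to 0.11), was 0.00 without WT B and WT C (interval -0.22 to 0.22). For the 5 other genes of the class the log2 fold change ran from -0.23 (Chst15) to 0.27 (Chst12), and none had an unadjusted p under 0.05.

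**Figure D4:**
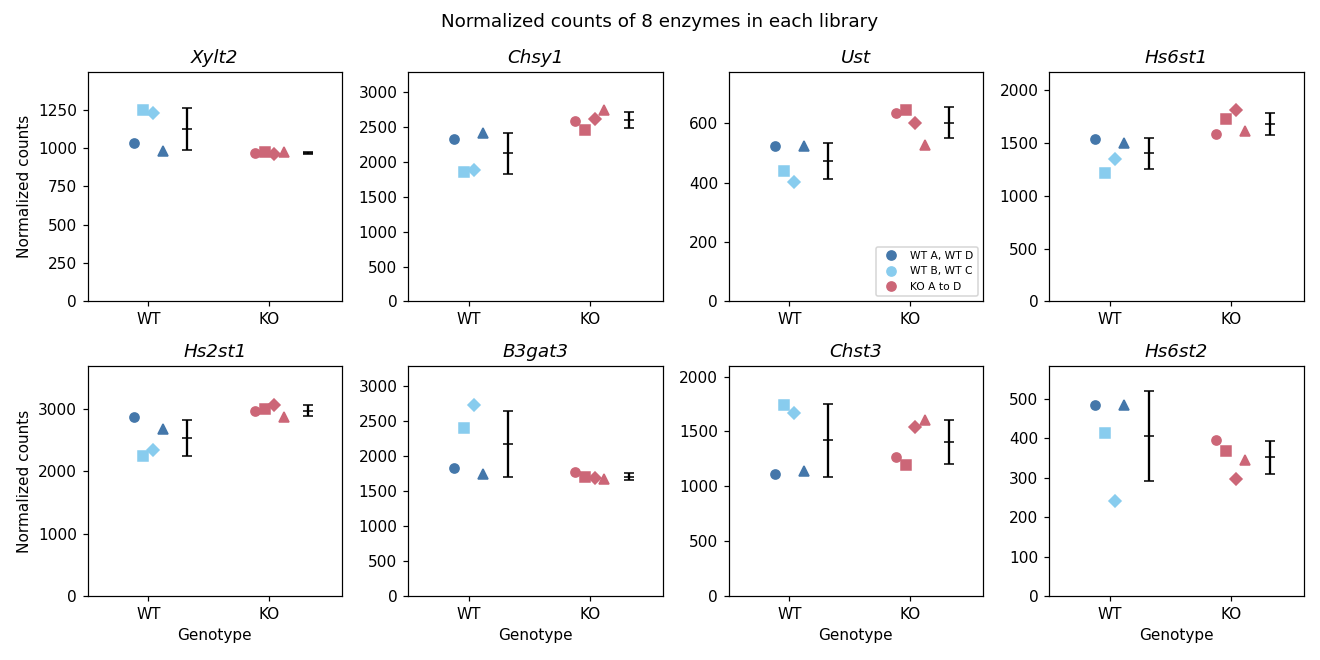
Normalized counts of 8 enzymes in each library (points) with mean and SD (bars) for WT and quadruple KO; the vertical axes start at 0. Chsy1, Ust and Hs6st1 have every KO point above every WT point and Xylt2 has every KO point below, while the light blue points (WT B and WT C) set the width of the WT group.

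The heparan chain begins when Extl3 adds N-acetylglucosamine to the linker and is extended by the complex of Ext1 and Ext2. Extl3, the most abundant of the class per kb with 387 ± 24.2 in WT, had 4747, 4188, 4148 and 4378 normalized counts in WT and 4674, 4820, 4969 and 4743 in the quadruple KO. WT A lay within the KO range and the other WT libraries lay below it (log2 fold change 0.14, limma adjusted p = 0.304, and 0.07 without WT B and WT C). Extl1 had the lowest mean level per kb of the list, not separated from Chsy3 beyond the spread between libraries. Its normalized counts were 47.7, 73.8, 93.4 and 64.4 in WT and 59.7, 56.1, 64.2 and 53.1 in the quadruple KO. Its log2 fold change was -0.22 (95% interval -0.69 to 0.25) and turned to 0.07 with WT B and WT C left out (interval -0.35 to 0.48). Of the exonic bases of Extl1, 15.8% lie over exons of Slc30a2 on the opposite strand, which had a WT mean of 221.9 normalized counts. Ext1, Ext2 and Extl2 had log2 fold changes of -0.14, 0.06 and 0.11, which were -0.05, 0.03 and 0.03 without WT B and WT C.

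Modification of heparan starts with the N-deacetylase and N-sulfotransferases, after which Glce converts glucuronic to iduronic acid and O-sulfotransferases act at the 2-O, 6-O and 3-O positions. Ndst1 had 5561, 6652, 6294 and 4739 normalized counts in WT and 5421, 5308, 5124 and 5710 in the quadruple KO. The KO libraries lay inside the WT range. The log2 fold change was -0.10 (95% interval -0.34 to 0.14), and with WT B and WT C left out it turned to 0.07 (interval -0.09 to 0.23). Hs6st1 (ENSMUSG00000045216.8, chr1:36107437-36145527, plus strand, GRCm39), a 6-O-sulfotransferase, had 1539, 1215, 1352 and 1500 in WT and 1585, 1725, 1811 and 1612 in the quadruple KO. Every KO library was above every WT library, with WT A and KO A as the nearest pair. Its mean was 1402 ± 148 for WT and 1683 ± 104 for the KO libraries (SD, n = 4 each; exact permutation p = 0.0286). The log2 fold change was 0.27 (standard error 0.09, unadjusted p = 0.0171, limma adjusted p = 0.301), and 0.15 against WT A and WT D alone (95% interval 0.00 to 0.29, adjusted p = 0.434).

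Hs2st1, the 2-O-sulfotransferase of heparan (chr3:144134693-144276528, minus strand, GRCm39), had 2871, 2253, 2337 and 2680 normalized counts in WT and 2973, 2993, 3070 and 2866 in the quadruple KO. The genotypes overlapped only in WT A and KO D. The mean was 2535 ± 290 for WT and 2975 ± 84.0 for the KO libraries (SD, n = 4 each; exact permutation p = 0.0571), and the log2 fold change was 0.24 (standard error 0.09, unadjusted p = 0.0233, limma adjusted p = 0.301). It was 0.10 without WT B and WT C (95% interval -0.01 to 0.22). Hs6st2, another 6-O-sulfotransferase, had 484, 413, 241 and 486 in WT and 397, 369, 298 and 346 in the quadruple KO, so that WT A and WT D were the highest libraries and WT C was the lowest. Its log2 fold change was -0.16 against all WT libraries and -0.47 against WT A and WT D (standard error 0.11, unadjusted p = 0.00299, limma adjusted p = 0.209).

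Ndst2 and Ndst3 also had an unadjusted p under 0.05 in the comparison with WT A and WT D alone. Ndst2 had a log2 fold change of 0.23 there (unadjusted p = 0.0137, limma adjusted p = 0.320) and 0.03 against all WT libraries. Ndst3 had -0.17 (unadjusted p = 0.0308, limma adjusted p = 0.382) and 0.09, so that its sign depended on the WT libraries used. Together with Chsy1, Chst3 and Hs6st2 these were 5 of 44 enzymes, against 11.6% of all genes. No enzyme was called in that comparison, in which 0.527% of all genes were called. The median log2 fold change over the enzymes was 0.03, their median size regardless of sign was 0.07 compared with 0.10 over all genes, and the interval lay within 0.5 of 0 for 40 of 44 enzymes, compared with 67% of all genes. The enzymes and all genes were not matched by level here either. Both comparisons share the 4 KO libraries and 2 of the WT libraries.

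Chst1 and Chst2 place sulfate on the 6-O position of galactose and of N-acetylglucosamine, mainly on keratan sulfate and related glycans. Chst1 (chr2:92429325-92446522, plus strand, GRCm39) had 1045, 1239, 1236 and 866 normalized counts in WT and 890, 895, 860 and 812 in the quadruple KO. Only WT D lay within the KO range. The mean was 1096 ± 178 for WT and 864 ± 38.3 for the KO libraries (SD, n = 4 each; exact permutation p = 0.0857), and the log2 fold change was -0.33 (standard error 0.12, unadjusted p = 0.0215, limma adjusted p = 0.301), or -0.14 against WT A and WT D alone. Chst2 had 2866, 3314, 3268 and 2722 in WT and 2836, 2769, 2676 and 2633 in the quadruple KO, with overlap of both groups (log2 fold change -0.15, and -0.03 without WT B and WT C).

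The extracellular sulfatases Sulf1 and Sulf2 remove 6-O sulfate from finished heparan chains. Sulf2 had 2160, 2356, 1927 and 2081 normalized counts in WT and 2166, 2265, 2295 and 2008 in the quadruple KO, with KO values inside the WT range. Sulf1 had 1755, 1730, 1334 and 2139 in WT and 1991, 1955, 1938 and 1832 in the quadruple KO, again inside the WT range. Its log2 fold change was 0.17 (limma adjusted p = 0.438) and turned to -0.01 with WT B and WT C left out, whereas that of Sulf2 was 0.04 in both comparisons. Precursors come from Ugdh, which makes UDP-glucuronic acid, and from the PAPS synthases Papss1 and Papss2, which make the sulfate donor. Papss1 was the steadiest gene of the list, with 1420, 1420, 1425 and 1356 in WT and 1428, 1378, 1462 and 1383 in the quadruple KO. Its log2 fold change of 0.01 had a 95% interval of -0.13 to 0.15, and 0.03 was found without WT B and WT C. Papss2 had 200, 164, 147 and 169 in WT and 197, 239, 201 and 173 in the quadruple KO (log2 fold change 0.25, 95% interval -0.06 to 0.56, and 0.13 without WT B and WT C), and Ugdh had a log2 fold change of -0.17 that was 0.08 against WT A and WT D.

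Upstream sequences are shown for the 4 enzymes whose genotypes did not overlap, so that their promoter sequences can be set side by side. Each is the RefSeq window of 300 bases, from 250 bases before to 50 after the annotated start, on the gene's strand in GRCm38.p6, an earlier build than that of the files. The windows are chr7:66109242-66109541 (plus) for Chsy1, chr10:8518776-8519075 (minus) for Ust, chr1:36068150-36068449 (plus) for Hs6st1 and chr11:94677444-94677743 (minus) for Xylt2. Capitals mark the letters GGGCGG on either strand, the core of the GC box bound by Sp-family factors.
Chsy1: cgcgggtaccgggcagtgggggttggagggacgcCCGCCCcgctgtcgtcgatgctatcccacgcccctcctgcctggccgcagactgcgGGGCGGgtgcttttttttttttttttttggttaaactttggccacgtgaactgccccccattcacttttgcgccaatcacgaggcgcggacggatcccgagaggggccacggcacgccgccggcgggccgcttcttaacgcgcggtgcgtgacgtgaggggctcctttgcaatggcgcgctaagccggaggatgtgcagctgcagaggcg
Ust: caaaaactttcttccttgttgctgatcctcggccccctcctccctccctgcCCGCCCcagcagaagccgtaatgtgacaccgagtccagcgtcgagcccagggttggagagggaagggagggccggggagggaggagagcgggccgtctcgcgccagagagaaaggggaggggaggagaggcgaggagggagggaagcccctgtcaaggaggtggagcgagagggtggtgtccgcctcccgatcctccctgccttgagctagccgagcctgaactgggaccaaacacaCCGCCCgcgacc
Hs6st1: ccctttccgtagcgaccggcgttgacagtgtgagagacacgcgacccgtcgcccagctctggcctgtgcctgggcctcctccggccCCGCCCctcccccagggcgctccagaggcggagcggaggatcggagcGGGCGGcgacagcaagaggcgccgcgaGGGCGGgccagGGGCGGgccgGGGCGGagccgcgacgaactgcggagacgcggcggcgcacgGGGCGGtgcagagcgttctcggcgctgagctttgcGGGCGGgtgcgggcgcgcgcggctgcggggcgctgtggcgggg
Xylt2: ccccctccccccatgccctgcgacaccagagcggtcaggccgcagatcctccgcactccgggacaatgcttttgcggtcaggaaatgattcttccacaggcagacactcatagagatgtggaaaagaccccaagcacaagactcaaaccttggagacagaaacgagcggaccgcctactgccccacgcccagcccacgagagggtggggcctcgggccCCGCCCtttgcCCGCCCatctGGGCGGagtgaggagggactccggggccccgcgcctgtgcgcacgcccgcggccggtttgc
The letters occurred 2 times in the window of Chsy1, 2 in Ust, 7 in Hs6st1 and 3 in Xylt2. A window was at hand for 36 of the enzymes, and 25 of these (69.4%) held the letters at least once, compared with 66.6% of 11999 tested genes and 38.2% of all 27025 genes with such a window. GC content was 65.3% to 78.0% in the 4 windows. A match of letters is a description of the sequence and not a binding site.

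The levels per kb were also summed over each class. The linker class, B3gat1 included, summed to 1970, 2329, 2401 and 1890 per kb in WT and 1939, 1907, 1910 and 1873 in the quadruple KO. Only WT B and WT C exceeded the KO values by a wide margin, and the KO to WT ratio of the means was 0.888, or 0.988 against WT A and WT D. The 6-O-sulfotransferases of galactose and N-acetylglucosamine had a ratio of 0.877, or 0.964 against WT A and WT D. The chondroitin chain genes summed to 1381 ± 93.1 per kb for WT and 1350 ± 26.0 for the KO libraries (SD, n = 4 each). Their ratio was 0.978 and turned to 1.04 against WT A and WT D. For the chondroitin and dermatan modification genes the ratio was 1.0, or 1.10 against WT A and WT D, where Chst3 contributed 37.3% of the sum.

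The heparan chain class was the 1 class of 8 whose sums did not overlap between genotypes, with 871 to 934 per kb in WT and 936 to 955 in the quadruple KO. The gap between WT A and KO A was small, and the ratio of the means was 1.05, or 1.03 against WT A and WT D. Extl3 made up 44% of the sum. Of the 5 genes of the class, 3 had a log2 fold change above 0 and 2 below 0. None of them was without overlap by itself, and no background for class sums is given here. Heparan modification had a ratio of 1.02 (1.03 against WT A and WT D) and the sulfatases 1.06 (1.01). Precursor supply had 0.975, which turned to 1.04. Over all 44 enzymes the sum was 8060 ± 482 per kb for WT and 7824 ± 56.7 for the KO libraries (SD, n = 4 each), a ratio of 0.971 that was 1.02 against WT A and WT D. No test was made on these sums.

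**Figure D5:**
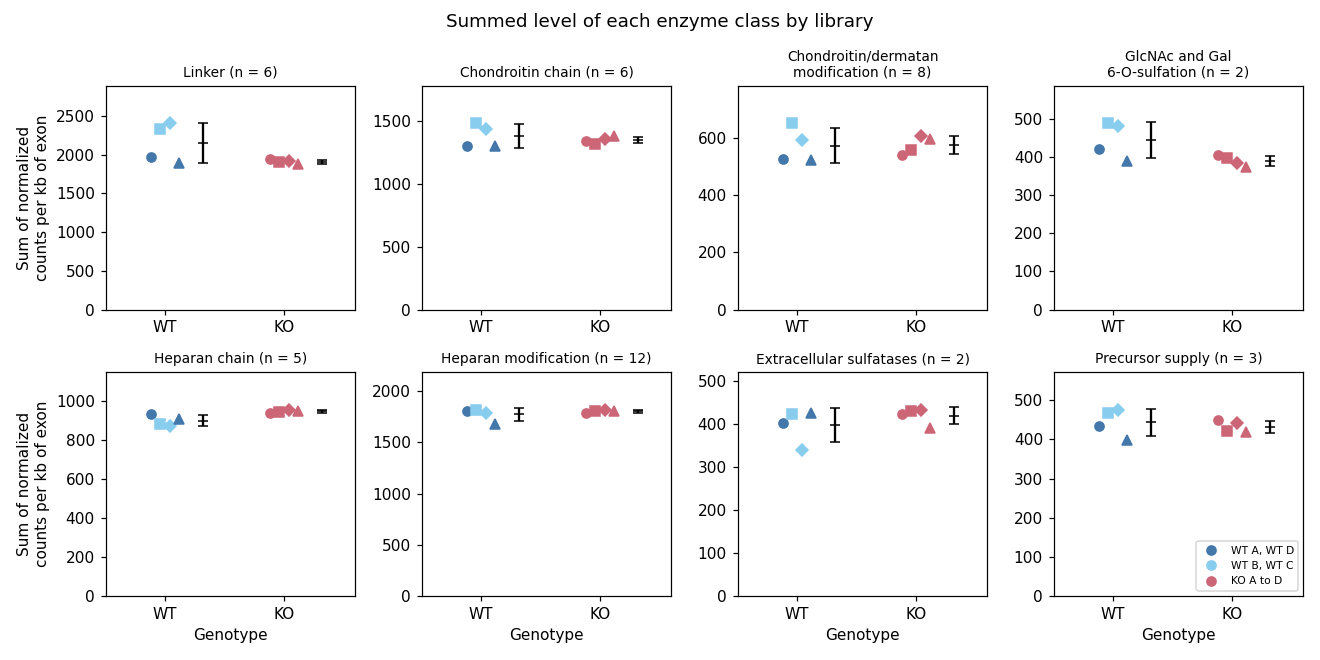
Sum of normalized counts per kb of exon over each of the 8 enzyme classes, by library (points) with mean and SD (bars); n in each panel is the number of genes. WT B and WT C lie above the other libraries in the linker and chondroitin chain panels, and the heparan chain panel is the one in which WT (871 to 934) and KO (936 to 955) do not overlap.

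The share of a given gene in the RNA of a group of related enzymes was computed from the levels per kb within each library. Enzyme activity was not measured. Hs6st1 made up 55.1%, 46.0%, 52.8% and 56.9% of the 3 heparan 6-O-sulfotransferases in WT A to D and 57.9%, 60.9%, 64.4% and 60.8% in KO A to D. Its share did not overlap between the genotypes, with WT D (56.9%) and KO A (57.9%) as the nearest pair. The mean share was 52.7% ± 4.79 for WT and 61.0% ± 2.65 for the KO libraries (SD, n = 4 each). Xylt1 made up 62.0% to 68.7% of the xylosyltransferases in WT and 69.5% to 71.0% in the quadruple KO. Chst3, the 6-O-sulfotransferase, made up 54.2% ± 8.91 of the sum of Chst3, Chst11, Chst12 and Chst14 in WT and 51.1% ± 3.0 in the quadruple KO. This share was 63.6% in WT B and 60.1% in WT C, but 45.7% in WT A and 47.6% in WT D, compared with 47.2% to 54.2% in the quadruple KO. The shares of Ndst1 (70.7% and 68.6%), Papss1 (87.1% and 85.0%) and Sulf2 (63.3% and 61.2%) overlapped between the genotypes, with the WT mean given first. These shares were chosen as a description and were not tested. Hs6st1 and Xylt2 were already among the enzymes without overlap, and their shares use the same values. No background for such shares is given here.

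Around these enzymes, 75 further gene names of the pathway were listed, of which 65 had a row and were tested. Among them 1 was called, against 0.437% of all genes tested. An unadjusted p under 0.05 was found for 14 (21.5%, against 16.6% of all genes), with 8 higher and 6 lower, and 11 (16.9%, against 9.74%) did not overlap between genotypes. The called gene was B3gat2 (ENSMUSG00000026156.9, chr1:23800834-23888239, plus strand, GRCm39), a glucuronosyltransferase of the family of B3gat1 and B3gat3. It had 663, 591, 584 and 665 normalized counts in WT and 1066, 1118, 1096 and 1106 in the quadruple KO. All KO libraries were far above all WT libraries, with 175% of the WT mean (log2 fold change 0.81 with a standard error of 0.08, limma adjusted p = 0.000778), and the difference came to 0.72 against WT A and WT D alone (adjusted p = 0.000209). Of its exonic bases, 35.1% lie over exons of Smap1 on the opposite strand. Smap1 had a mean of 2127 in WT and 4693 in the quadruple KO (log2 fold change 1.15 for Smap1, limma adjusted p = 8.14e-05). How far reads of Smap1 entered the value of B3gat2 was not tested.

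The other pathway genes without overlap had limma adjusted p of at least 0.301, so none of them was called here. Higher in each KO library were the xylose kinase Fam20b (log2 fold change 0.18), Ugp2, which makes UDP-glucose (0.16), the heparan-degrading enzyme Naglu (0.33), the heparan sulfate carriers Sdc2 (0.34) and Sdc3 (0.16), and the photoreceptor matrix proteoglycan Impg2 (0.29). Lower in each KO library were the xylose phosphatase Pxylp1 (-0.52), the 3-O-sulfotransferase Hs3st4 (-0.36) and the heparan sulfate carriers Gpc2 (-0.48) and Sdc1 (-0.83). Against WT A and WT D alone the values came to 0.10 for Fam20b, 0.07 for Ugp2, 0.23 for Naglu, 0.12 for Sdc2, 0.22 for Sdc3 and 0.17 for Impg2, and to -0.09 for Pxylp1, -0.19 for Hs3st4, -0.29 for Gpc2 and -0.75 for Sdc1. With a correction for GC content, added after seeing the data, that of Ugp2 turned to -0.01. The paper reports Gpc2 as significantly downregulated in its own DESeq2 test, which called more genes in total than limma did here. In the limma fit, 77 of all 17636 genes tested were called, and Gpc2 was not among them (adjusted p = 0.301). A lack of a call here is thus tied to the test used, and the cause of the difference between the tests was not tested.

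Markers of other cell types gave overlapping sums between the genotypes. Retinal markers summed to 916525 to 1170110 normalized counts in WT, with the lowest value in WT B, and to 1154272 to 1242421 in the quadruple KO. For the retinal pigment epithelium 6 of 7 markers had a row, with sums of 2158 to 6485 in WT and 2426 to 3736 in the quadruple KO. Fibroblast and scleral markers (6 of 7) summed to 2240 to 3248 and 2563 to 3154, and endothelial markers (6 of 6, with 1 called) to 9088 to 12295 and 10530 to 12085. Lens markers (5 of 6) ranged from 83.0 to 2828 in WT, with the highest value in WT B, and from 34.9 to 1890 in the quadruple KO. Oligodendrocyte markers (3 of 4) summed to 839 to 1079 and 919 to 1572, microglial markers (4 of 4) to 211 to 274 and 271 to 313, and astrocyte markers (3 of 3) to 1085 to 1232 and 717 to 1262. The defining markers Rpe65, Lum, Mip and Mog were among the names without a row. The part of these cell types in the values of the enzymes was not tested.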

How the data were processed

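Total RNA of adult retinae from 4 WT and 4 quadruple KO libraries was sequenced after preparation with a directional total RNA kit. Per the submitters' processing notes, the tools were Trim Galore 0.6.7 for trimming, STAR 2.7.9a with the GRCm39 genome, Salmon 1.5.2 for quantification and DESeq2 1.32.0 in R 4.1.1 for normalization. The authors deposited normalized counts, that is estimated counts on the scale of their size factors, for 18058 genes, with the lowest row mean at 8.50. The annotation release is not given in the sources used here. The deposited table also holds the authors' mean, fold change and p-values, which were not used.

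Genes with a mean of at least 10 (17636) were tested as log2(value + 1) with limma 3.58.1 in R 4.3.3 (lmFit, eBayes with trend, no covariate) and Benjamini-Hochberg adjustment over all of them. Fold changes on this scale are understated for low genes. Exact permutation tests were two-sided on normalized counts. Summaries used Python 3.11.15, numpy 2.4.6 and pandas 2.3.3, and plots matplotlib 3.10.9. Lengths and GC content came from GENCODE on GRCm39, matched by gene ID for 17969 rows and all 44 enzymes. Only 49.0% to 70.6% of the low values were whole multiples of the smallest step in a library, so depth is an estimate and no count model was run. The test was checked on simulated data with the same spread in both genotypes and no libraries set apart. That check does not cover the larger spread of WT or the distance of WT B and WT C found here.

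The enzymes, the lists and the tests were chosen with earlier results of these data known. Values per library are given for enzymes that were called, did not overlap or had an unadjusted p under 0.05, and for the most abundant and the most different enzyme of each class; Hs6st2, Ndst2, Ndst3 and the isozyme shares were added after their values were seen. Of the other pathway genes, those called or without overlap are named. The letters A to D did not pair the libraries and were used as a block only as an alternative.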

Additional observations from a re-analysis of the deposited data

Results flagged for a closer look

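Of 104 groups of 4 libraries examined for a single library far from its group, 1 met the criterion, and chance alone gives about 1 in 20. Papss1, a synthase of the sulfate donor PAPS, had 1356 normalized counts in WT D, whereas the other WT libraries had 1420, 1420 and 1425. Its quadruple KO libraries ran from 1378 to 1462, so that the whole spread of this gene was small.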

How the results depend on the processing

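No enzyme was called under any alternative except the fit that took the leading residual component as a covariate, which called 13 of 44 enzymes, counted 20 with an unadjusted p under 0.05, and called 26 of the other pathway genes and 5857 genes overall. That component is taken from the residuals, so the fold changes stay the same by construction and only their error shrinks. Array weights, which were 0.164 for WT B and 0.156 for WT C, gave 143 called genes overall. Against WT A and WT D alone the median log2 fold change of the enzymes was 0.03. Leaving out each library in turn gave 0 called enzymes each time, 3 to 14 with an unadjusted p under 0.05, a median log2 fold change of -0.06 to 0.01, 21 to 24 enzymes below 0, and 56 to 89 called genes overall. The 14 were reached without WT A and also without WT D, and the 3 without WT B and also without KO C. The share of all genes at that p is not given for these fits or for the fit with the residual component. The counts of enzymes at that p therefore have no background there. Chsy1 and Ust had an unadjusted p under 0.05 in 8 of 8 such fits and Hs6st1 in 7. These genes had such a p with all libraries too, and the fits share most of their libraries. No such fit leaves out both WT B and WT C. Against WT A and WT D alone the unadjusted limma p was 0.0421 for Chsy1, 0.0602 for Ust and 0.0525 for Hs6st1. The ratio of the linker sums ran from 0.854 to 0.924, and that of the heparan chain sums from 1.04 to 1.07. The letter as a replicate block gave 0 called enzymes, 6 with an unadjusted p under 0.05 and 51 called genes overall. Deviations of libraries with the same letter correlated between -0.109 and 0.098, and 3 of 8 libraries correlated best with their own letter. A GC correction, added after seeing the data, gave log2 fold changes of -0.07 for Xylt2, -0.13 for B3gat3, -0.02 for Chpf, -0.25 for Chpf2, -0.04 for Ndst1, -0.23 for Hs6st2, 0.25 for Sdc3 and 0.40 for Hs6st1, and turned Papss1 and Ugp2 to -0.01 each. With WT B and WT C left out the log2 fold change turned to 0.01 for Chpf, 0.04 for Chpf2, 0.07 for Extl1 and Ndst1, -0.01 for Sulf1 and -0.17 for Ndst3. Array weights turned Extl1 to 0.12 and Ndst3 to -0.13, and rescaling by median ratios left Chst3 at 0.00 with a turned sign. When each library was left out in turn, 0 lay within the range of log2 fold changes for Chst3 (-0.10 to 0.11), Ndst2 (-0.06 to 0.12), Ndst3 (-0.02 to 0.18), Sulf2 (-0.01 to 0.09) and Papss1 (-0.01 to 0.02). None of these genes was called in these fits, and the causes were not tested. The count model planned for raw counts was not run.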
